A study of Homo sapiens with 2 samples.

Results

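The genes described here encode 9 cell surface proteins that are used, or have been tried, as targets for therapy or imaging of prostate cancer and other carcinomas, namely FOLH1, STEAP1, STEAP2, TMEFF2, CD276, EPCAM, PSCA, SSTR2 and CEACAM5. They were taken by symbol from the 36601 genes of the count matrices, and all 9 were found in both. Single-cell RNA-Seq libraries were prepared from LNCaP_FGC, an established human prostate carcinoma line that responds to androgen, and from LNCaP_C4-2B, a line that descends from LNCaP and is castration-resistant. Both lines were cultured untreated in RPMI1640 with 10% FBS and antibiotic, and 1850 cells of each were deposited. Each line is represented by 1 library, and their labels give different batches, so the line and the batch cannot be told apart and no significance test was possible. All intervals below are 95% intervals that cover counting error and not the variation between cultures.

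Surface targets act as docking sites for antibodies, radioligands and engineered T cells, so a target is useful where most tumor cells carry it and few normal cells do. FOLH1 encodes prostate-specific membrane antigen (PSMA), a membrane peptidase that releases glutamate from folate and from a brain dipeptide, and it is the standard target of prostate cancer imaging. STEAP1 and STEAP2 encode 6-transmembrane proteins of a metalloreductase family that handles iron and copper. TMEFF2 encodes a transmembrane proteoglycan with EGF-like and follistatin-like domains. CD276 (B7-H3) belongs to the B7 immune checkpoint family, EPCAM is the epithelial adhesion molecule used to capture circulating tumor cells, PSCA and CEACAM5 (carcinoembryonic antigen) are lipid-anchored surface glycoproteins, and SSTR2 is the somatostatin receptor imaged in neuroendocrine tumors. The data measure RNA, and no protein was measured.

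Regions upstream of an annotated start of 4 of the genes are shown, chosen for the levels described below. No result below rests on the sequences. TMEFF2 was present in LNCaP_FGC and nearly missing from LNCaP_C4-2B, and CEACAM5 was missing from both. STEAP1 and STEAP2 lie side by side and were both lower by CPM in LNCaP_C4-2B. Sequences are from a set of RefSeq promoters (GRCh38.p14) in which 6 of the 9 genes had an entry. Each runs 5′ to 3′ on the strand of the gene, from base 250 to base 61 before the annotated start, with CG dinucleotides, the sites of DNA methylation, in capitals.
TMEFF2: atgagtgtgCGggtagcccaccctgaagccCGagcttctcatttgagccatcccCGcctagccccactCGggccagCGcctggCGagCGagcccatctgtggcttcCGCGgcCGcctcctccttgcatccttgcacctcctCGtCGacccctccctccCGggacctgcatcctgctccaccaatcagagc
CEACAM5: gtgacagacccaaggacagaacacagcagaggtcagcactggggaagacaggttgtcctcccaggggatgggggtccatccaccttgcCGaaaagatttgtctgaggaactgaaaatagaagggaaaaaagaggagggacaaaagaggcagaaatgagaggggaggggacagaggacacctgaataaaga
STEAP1: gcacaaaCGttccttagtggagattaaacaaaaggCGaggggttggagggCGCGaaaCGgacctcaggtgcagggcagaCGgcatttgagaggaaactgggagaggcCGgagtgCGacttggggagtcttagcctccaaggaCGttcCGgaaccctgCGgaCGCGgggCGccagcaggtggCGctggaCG
STEAP2: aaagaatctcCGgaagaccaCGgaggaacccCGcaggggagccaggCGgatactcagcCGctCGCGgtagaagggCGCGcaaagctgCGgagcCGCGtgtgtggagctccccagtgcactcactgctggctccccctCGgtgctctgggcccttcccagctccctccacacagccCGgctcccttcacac

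The TMEFF2 window (chr2:192194994-192195183, minus strand) holds 13 CG dinucleotides, more than 64.7% of the 35116 RefSeq windows of the same length and placement, whose median is 7. The CEACAM5 window (chr19:41708376-41708565, plus strand) holds 1, more than 9.41% of them. The STEAP1 window (chr7:90154219-90154408, plus strand) holds 16 and the STEAP2 window (chr7:90211490-90211679, plus strand, the first of 2 RefSeq entries, inside the gene as GENCODE draws it) holds 14, and part of the latter is also exon of the antisense transcript STEAP2-AS1. These are descriptions of the letters, and methylation was not examined here.

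Most cells of both lines held RNA of FOLH1, STEAP1 and STEAP2, so the surface targets with the highest levels were also the most widely detected. A level is given as CPM, the UMIs (unique molecular identifiers, 1 per captured RNA molecule) of a gene scaled to a library of 1000000 UMIs, and a cell is positive when it holds at least 1 UMI. The chemistry tags the 3′ end once per molecule, so levels of different genes were set side by side without a length correction. LNCaP_FGC cells held a median of 18292 UMIs and LNCaP_C4-2B cells 17566.5, with a mean of 19000 in both because the authors thinned them, and 1 UMI equals 0.0284 CPM.

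FOLH1 (chromosome 11, 49145092 to 49208638, minus strand) stood at 253 CPM in LNCaP_FGC (interval 247 to 258) and at 308 CPM in LNCaP_C4-2B (303 to 314). It was detected in 97.7% of LNCaP_FGC cells (96.9 to 98.3) and in 98.7% of LNCaP_C4-2B cells (98.1 to 99.2), with a median of 5 UMIs per cell in both. FOLH1 was thus 1.22-fold higher in LNCaP_C4-2B (1.19 to 1.26), a small difference, and it was found in nearly every cell of both libraries.

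STEAP1 (chromosome 7, 90154456 to 90164829, plus strand) stood at 307 CPM in LNCaP_FGC (301 to 313) and at 142 CPM in LNCaP_C4-2B (138 to 146). It was detected in 98.2% of LNCaP_FGC cells (97.4 to 98.7) and in 87.6% of LNCaP_C4-2B cells (86.0 to 89.1). STEAP2 (chromosome 7, 90167590 to 90238137, plus strand), which starts 2760 bases after the end of STEAP1, stood at 398 CPM (391 to 405) and 223 CPM (218 to 228). STEAP2 was detected in 99.0% and 94.9% of cells. The STEAP genes were thus lower in LNCaP_C4-2B, 2.16-fold for STEAP1 (2.09 to 2.24) and 1.79-fold for STEAP2 (1.74 to 1.84), and the median cell held 5 UMIs of STEAP1 in LNCaP_FGC against 2 in LNCaP_C4-2B. STEAP1B, a near copy of STEAP1 with which reads could be shared, had only 9 and 13 UMIs in the respective libraries.

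TMEFF2 (chromosome 2, 191949043 to 192194933, minus strand) differed most. It stood at 163 CPM in LNCaP_FGC (159 to 168) and was detected in 61.0% of its cells (58.7 to 63.2), whereas LNCaP_C4-2B held 1 UMI in 1 of 1850 cells, 0.0541% of cells (interval up to 0.301%). The ratio was 5747-fold, with a counting interval of 1031 to 227033 that reflects the single UMI. The median LNCaP_FGC cell held 1 UMI, the percentile 90 was 9 and the maximum 28.

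CD276 (chromosome 15, 73683966 to 73714514, plus strand) stood at 38.9 CPM in LNCaP_FGC (36.9 to 41.0) and at 17.7 CPM in LNCaP_C4-2B (16.4 to 19.2), 2.19-fold lower (1.99 to 2.42), with 49.5% and 28.4% of cells positive. EPCAM (chromosome 2, 47345158 to 47387601, plus strand) went the other way. It stood at 49.0 CPM in LNCaP_FGC (46.8 to 51.4) and at 81.3 CPM in LNCaP_C4-2B (78.3 to 84.3), 1.66-fold higher (1.56 to 1.76), with 57.7% and 74.9% of cells positive.

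PSCA (chromosome 8, 142670308 to 142682725, plus strand) and SSTR2 (chromosome 17, 73165010 to 73176633, plus strand) were near the limit of detection in a cell. PSCA had 235 UMIs in the LNCaP_FGC library against 168, or 6.69 CPM against 4.78, in 11.2% and 8.16% of cells. SSTR2 had 99 and 62 UMIs, 2.82 CPM against 1.76, in 4.92% and 3.35% of cells. No cell type known to lack these genes was present, so how much of any share is free RNA was not tested. CEACAM5 (chromosome 19, 41708585 to 41730433, plus strand) had 0 UMIs in both libraries, which allows up to 0.0853 CPM and a share of up to 0.162% of cells with a UMI (0.105 CPM and 0.199% by the exact interval drawn in the plot of positive cells). This limits cells with a UMI and not cells that express the gene.

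**Figure D1:**
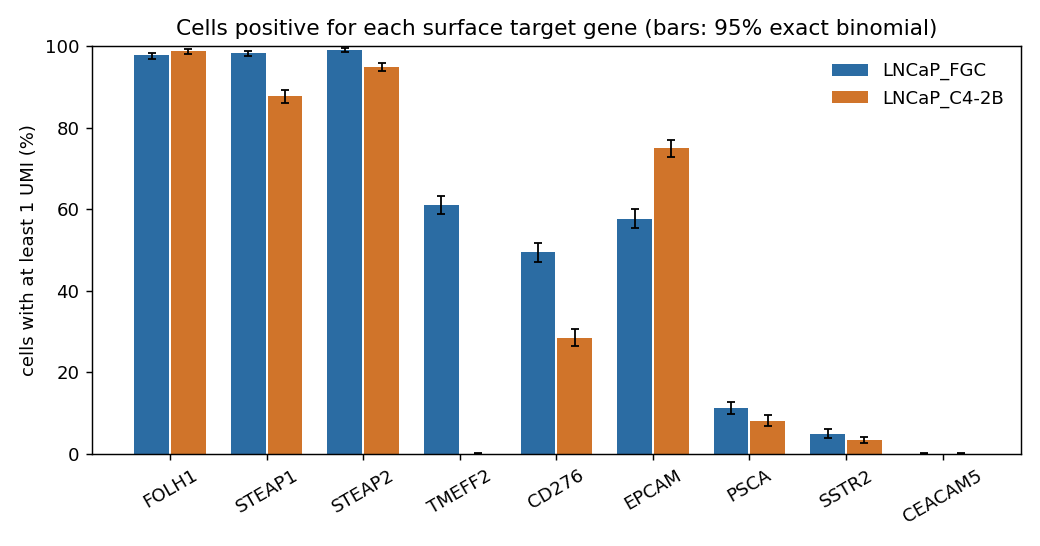
Share of cells with at least 1 UMI (vertical axis, percent) for each of the 9 genes in LNCaP_FGC and LNCaP_C4-2B, 1850 cells each; bars carry exact binomial 95% intervals. FOLH1, STEAP1 and STEAP2 reach at least 87.6% in both libraries, TMEFF2 is at 61.0% and 0.0541%, EPCAM is the gene with the clearest excess in LNCaP_C4-2B, and CEACAM5 is at 0.

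In order of level, LNCaP_FGC ran STEAP2, STEAP1, FOLH1, TMEFF2, EPCAM, CD276, PSCA, SSTR2 and CEACAM5, and LNCaP_C4-2B ran FOLH1, STEAP2, STEAP1, EPCAM, CD276, PSCA, SSTR2, TMEFF2 and CEACAM5. The counting intervals of neighbours in these orders did not overlap, apart from TMEFF2 and CEACAM5 in LNCaP_C4-2B. FOLH1 thus moved from the third place to the first, and TMEFF2 from the fourth to 1 UMI.

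Between the libraries, 17897 genes reached 10 UMIs in sum, and their median log2 ratio (LNCaP_C4-2B to LNCaP_FGC) was -0.49, so each gene was also read against that median. With at least 1.5-fold from the median gene counted as higher or lower, 26.0% of the genes tested were higher and 26.4% were lower. Of the 8 surface targets with enough UMIs, FOLH1 and EPCAM were higher, STEAP1, TMEFF2 and CD276 were lower, and STEAP2, PSCA and SSTR2 were within the limits. These counts are close to the backgrounds and are not a result about the targets as a set. STEAP1 and CD276 lay just outside the 1.5-fold limit, at -0.63 and -0.65 on the log2 scale from the median gene, and both intervals reached across it. PSCA, although 1.40-fold lower by CPM (1.14 to 1.72), sat at the median gene, 0.0022 from it on the log2 scale. With TMM scaling, which moves the median gene to -0.03, the log2 ratio was 0.75 for FOLH1, -0.38 for STEAP2 and -0.03 for PSCA. With no filter beyond 1 UMI, TMEFF2 alone was lower.

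**Figure D2:**
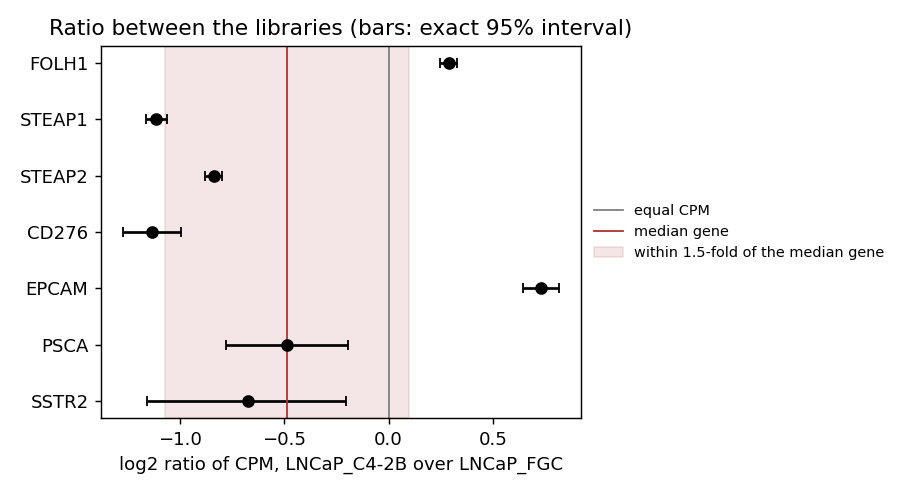
Log2 ratio of CPM (LNCaP_C4-2B divided by LNCaP_FGC, horizontal axis), with exact 95% intervals, for the 7 genes with several UMIs in both libraries; the red line marks the median gene at -0.49, the shaded band 1.5-fold around it and the grey line equal CPM. FOLH1 (0.29) and EPCAM (0.73) lie to the right of the band, and the STEAP1, CD276 and SSTR2 intervals lie across its left edge.

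How evenly each target was spread over the cells of a line was examined next. Every cell was thinned at random to 11901 UMIs, which kept 1623 LNCaP_FGC and 1665 LNCaP_C4-2B cells, and the negative cells were set beside the share that an even spread at the same mean would leave without a UMI. For CD276, PSCA and SSTR2 the values were close in both libraries, for example 63.7% negative against 62.7% for CD276 in LNCaP_FGC. EPCAM was negative in 58.3% against 56.2% in LNCaP_FGC, where its ratio of variance to mean of 1.16 was above that of 85.3% of genes of like level, and in 38.1% against 36.9% in LNCaP_C4-2B.

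FOLH1 was negative in 7.64% of thinned LNCaP_FGC cells where an even spread gives 4.58%, and in 2.82% of LNCaP_C4-2B cells where it gives 2.33%. STEAP1 was negative in 4.68% against 2.47% in LNCaP_FGC and in 22.5% against 17.9% in LNCaP_C4-2B. STEAP2 was negative in 1.85% against 0.783% in LNCaP_FGC, and in LNCaP_C4-2B it was positive in 89.0%, where an even spread leaves 7.21% negative. STEAP1 and STEAP2 in both lines, and FOLH1 in LNCaP_FGC, therefore had somewhat more negative cells than an even spread. For FOLH1 in LNCaP_C4-2B the counting interval of the negative share included the even-spread value. The ratios of variance to mean of the 3 genes, between 1.22 and 1.69, were above those of 50.6% to 84.3% of genes of like level in the same library, so such a spread was common.

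TMEFF2 in LNCaP_FGC stood apart from this. At equal depth, 45.5% of cells were negative where an even spread gives 13.2%, and the ratio of variance to mean was 4.41, above 910 of 918 genes of like level, whose median was 1.17. TMEFF2 was thus unevenly distributed among the cells of the line at a level at which most genes were not.

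**Figure D3:**
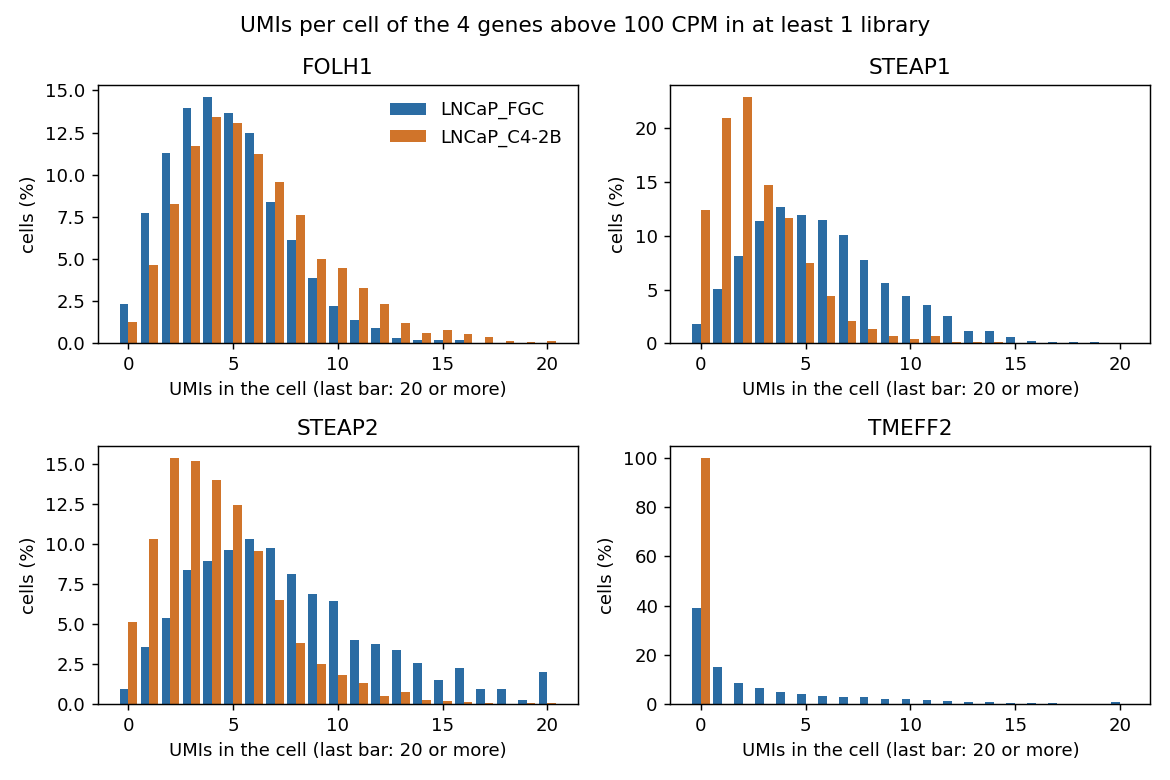
Share of cells (vertical axis, percent) by the number of UMIs they hold of FOLH1, STEAP1, STEAP2 and TMEFF2, at the deposited depth, 1850 cells per library; the last bar collects cells with 20 UMIs or more. FOLH1 has a single mode in both libraries and STEAP1 is shifted to fewer UMIs in LNCaP_C4-2B, while TMEFF2 has its mode at 0 in LNCaP_FGC with a long tail up to 28 UMIs.

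Cells negative for FOLH1 and a STEAP gene at once were few, whereas pairs of the less widely detected targets were often negative together. EPCAM and CD276 were both missing from 21.6% of LNCaP_FGC cells and 18.9% of LNCaP_C4-2B cells. TMEFF2 and CD276 were both missing from 21.6% and 71.5%. At the deposited depth, 5 of 1850 LNCaP_FGC cells (0.270%, interval 0.0878 to 0.630) and 3 of 1850 LNCaP_C4-2B cells (0.162%, 0.0335 to 0.473) lacked both FOLH1 and STEAP1. FOLH1 and STEAP2 were both missing from 2 LNCaP_FGC cells and 1 LNCaP_C4-2B cell. FOLH1, STEAP1 and STEAP2 were missing together from 2 LNCaP_FGC cells (0.108%) and from 0 LNCaP_C4-2B cells, which allows up to 0.162%. A pair drawn from FOLH1 and a STEAP gene thus left fewer than 1 cell in 100 without either RNA in each library at this depth. No order of the libraries is read from these few cells, since it turned at equal depth.

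The double negatives were set beside the product of the separate shares, the number that would coincide if the genes were unrelated. Products gave 0.790 LNCaP_FGC cells and 2.97 LNCaP_C4-2B cells for FOLH1 with STEAP1, against the 5 and 3 counted. At equal depth the counts were 11 LNCaP_FGC cells against a product of 5.81 and 13 LNCaP_C4-2B cells against 10.6. A second draw of the thinning moved the shares from 0.678% to 0.431% and from 0.781% to 1.38%. STEAP1 was negative in 8.87% of the 124 LNCaP_FGC cells without FOLH1 (interval 4.51 to 15.3) and in 4.34% of the 1499 with it (3.36 to 5.49). The excess in LNCaP_FGC rested on few cells, and the intervals overlap.

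The 5 LNCaP_FGC cells without FOLH1 and STEAP1 held 9207 to 14696 UMIs, below the library median, and in 4 of them mitochondrial genes took over 10% of UMIs (10.1% to 13.4%, against 6.27% in the library). Without the cells over 10% mitochondrial, 1 of 1799 LNCaP_FGC cells lacked both genes (0.0556%) and 0 lacked all of FOLH1, STEAP1 and STEAP2. One of the 5 held 0 UMIs of all 9 genes, and also 0 of KLK3 (prostate-specific antigen), with 7 UMIs of KRT8 and 6 of KRT18, which encode luminal keratins. The part of depth and mitochondrial share in these cells was not tested. No LNCaP_C4-2B cell was negative for all 9. The 3 LNCaP_C4-2B cells without FOLH1 and STEAP1 held 11555 to 17905 UMIs, 55 to 108 UMIs of KLK3 and 2 to 9 of STEAP2, and their mitochondrial shares were 7.69% to 8.77%.

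STEAP1 and STEAP2, whose proteins are close relatives, were missing together in more LNCaP_C4-2B cells. Both were missing from 3 LNCaP_FGC cells (0.162%) and from 21 LNCaP_C4-2B cells (1.14%, interval 0.704 to 1.73), where the product gives 11.8. At equal depth 52 LNCaP_C4-2B cells (3.12%) lacked both against a product of 41.1. In the same library 59 cells (3.19%) lacked STEAP1 and EPCAM, while 9 (0.486%) lacked FOLH1 and EPCAM.

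LNCaP_FGC cells held a UMI of a median of 5 of the 9 genes (maximum 8) and LNCaP_C4-2B cells of 4 (maximum 7). At most 2 of the genes were detected in 18 LNCaP_FGC cells (0.973%, interval 0.578 to 1.53) and in 78 LNCaP_C4-2B cells (4.22%, 3.35 to 5.23). Without TMEFF2 in the count, the medians were 4 and 4, and 27 (1.46%) and 79 cells (4.27%) had at most 2. At equal depth, with TMEFF2 counted, the medians were 4 and 4, and 48 (2.96%) and 182 cells (10.9%) had at most 2. At equal depth without TMEFF2, 78 (4.81%) and 182 cells (10.9%) had at most 2. The medians thus became equal without TMEFF2 and also at equal depth with it. Cells with few targets were more common in LNCaP_C4-2B in each of these counts.

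Whether a target was tied to another within a line was examined by comparing cells with 0 UMIs of a gene and cells with at least 2 at equal depth. In LNCaP_FGC, STEAP1 stood at 266 CPM in the 124 cells without FOLH1 and at 320 CPM in the 1241 cells with it, a ratio of 0.83 (0.75 to 0.92). FOLH1 stood at 190 CPM in the 76 cells without STEAP1 and at 266 CPM in the 1341 with it, a ratio of 0.72 (0.61 to 0.83). In LNCaP_C4-2B, STEAP2 stood at 195 CPM in the 374 cells without STEAP1 against 238 CPM (0.82, 0.76 to 0.89), and STEAP1 at 112 CPM in the 183 cells without STEAP2 against 152 CPM (0.74, 0.64 to 0.84). These pairs were thus lower where the partner was missing, by less than 1.5-fold. Others gave ratios near 1, since STEAP2 had 0.98 (0.90 to 1.06) between LNCaP_FGC cells without and with FOLH1, and FOLH1 had 0.96 (0.88 to 1.04) between LNCaP_C4-2B cells without and with STEAP2. EPCAM gave small differences in LNCaP_C4-2B, where the ratios of FOLH1, STEAP1 and STEAP2 between its negative and positive cells were 0.99, 0.98 and 1.08.

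The split on TMEFF2 in LNCaP_FGC gave small differences in the most abundant targets. Between the 739 cells without TMEFF2 and the 605 with it, FOLH1 stood at 246 and 269.7 CPM, STEAP1 at 307 and 321 CPM, STEAP2 at 405 and 414 CPM, and EPCAM at 48.4 and 46.8 CPM. CD276 was lower in the cells without TMEFF2, 35.6 CPM and a ratio of 0.81 (0.69 to 0.95), and PSCA was higher, 8.87 against 5.56 CPM (1.60, 1.08 to 2.40). KLK3 was higher in the cells without TMEFF2, 941 CPM against 615 CPM, a ratio of 1.53 (1.47 to 1.59).

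Read from the other side, TMEFF2 stood at 259 CPM in the 456 LNCaP_FGC cells without KLK3 and at 127 CPM in the 988 with it, 2.05-fold higher (1.90 to 2.21). EPCAM, CD276, FOLH1 and STEAP1 were 1.32-fold, 1.26-fold, 1.19-fold and 1.15-fold higher in the same cells, and STEAP2 had a ratio of 0.97. The median gene itself stood at 0.095 on the log2 scale in this split. Against it TMEFF2 was at 0.94, EPCAM at 0.31, CD276 at 0.23, FOLH1 at 0.15, STEAP1 at 0.11 and STEAP2 at -0.14. PSCA was 1.64-fold lower without KLK3 (1.06 to 2.62), at 4.98 CPM against 8.16 CPM, and SSTR2 stood at 3.32 CPM against 2.04 CPM, a ratio of 1.63 with an interval of 0.83 to 3.12.

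ETV1, an ETS transcription factor gene, was present in some cells of LNCaP_FGC and had 0 UMIs in LNCaP_C4-2B. In the 628 LNCaP_FGC cells without ETV1 against the 740 with it, TMEFF2 stood at 161 CPM in both, a ratio of 1.00 (0.92 to 1.08). STEAP1 was 1.18-fold higher without ETV1 (1.12 to 1.25), EPCAM 1.29-fold (1.12 to 1.48), FOLH1 1.07-fold (1.01 to 1.14) and STEAP2 1.08-fold (1.03 to 1.13), while KLK3 stood at 209 CPM without and 1318 CPM with ETV1. The median gene itself stood at 0.086 on the log2 scale in this split. Against it FOLH1 was at 0.016 and STEAP2 at 0.019, so both sat at the median gene. STEAP1 was at 0.16, EPCAM at 0.28 and TMEFF2 at -0.087. Pooled, the LNCaP_FGC cells without ETV1 thus stood at 161 CPM of TMEFF2 and 341 CPM of STEAP1. A pooled level can join unlike cells. Clusters 0 and 3, described below and both lower in ETV1 than the other cells, stood at 95.8 and 481 CPM of TMEFF2.

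Cell cycle phase was called in each library from 43 S and 54 G2M genes, which gave 804 G1, 463 S and 583 G2M cells in LNCaP_FGC and 904, 390 and 556 in LNCaP_C4-2B. FOLH1 stood at 274 CPM in G1 against 237 CPM in the other phases of LNCaP_FGC (1.15-fold, 1.11 to 1.20) and at 356 CPM against 271 CPM in LNCaP_C4-2B (1.31-fold, 1.26 to 1.36). STEAP1 was 1.17-fold higher in G1 in LNCaP_FGC and 1.22-fold in LNCaP_C4-2B. STEAP2 was 1.41-fold higher in LNCaP_FGC (1.37 to 1.46) and 1.30-fold in LNCaP_C4-2B (1.24 to 1.35). FOLH1, STEAP1 and STEAP2 were thus higher in G1 in both libraries. G1 cells of LNCaP_FGC had a lower median depth than G2M cells (17532 against 18740 UMIs) and a higher mitochondrial share (6.82% against 5.79%). In LNCaP_C4-2B the median depth was 15823 UMIs in G1, 20875 in S and 18460.5 in G2M, and the mitochondrial share 8.70%, 8.31% and 7.92%. The part of both in these ratios was not tested.

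Of the targets above 20 CPM, TMEFF2 had the widest range over phases. In LNCaP_FGC it stood at 203 CPM in G1, 175 CPM in S and 103 CPM in G2M, and the share of positive cells was 65.0%, 67.6% and 50.1%. G2M cells were at 0.54 of the other phases (0.50 to 0.57). EPCAM was slightly lower in G1 of LNCaP_FGC, 44.8 CPM against 52.1 CPM (0.86, 0.78 to 0.95), and near even in LNCaP_C4-2B (1.00, 0.92 to 1.07), and CD276 was near even in both (1.05 and 0.96, with intervals that include 1). PSCA stood at 8.33 CPM in G1, 6.80 CPM in G2M and 3.87 CPM in S of LNCaP_FGC, a 1.52-fold excess in G1 (1.16 to 1.98) that rests on 35 to 123 UMIs per phase.

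**Figure D4:**
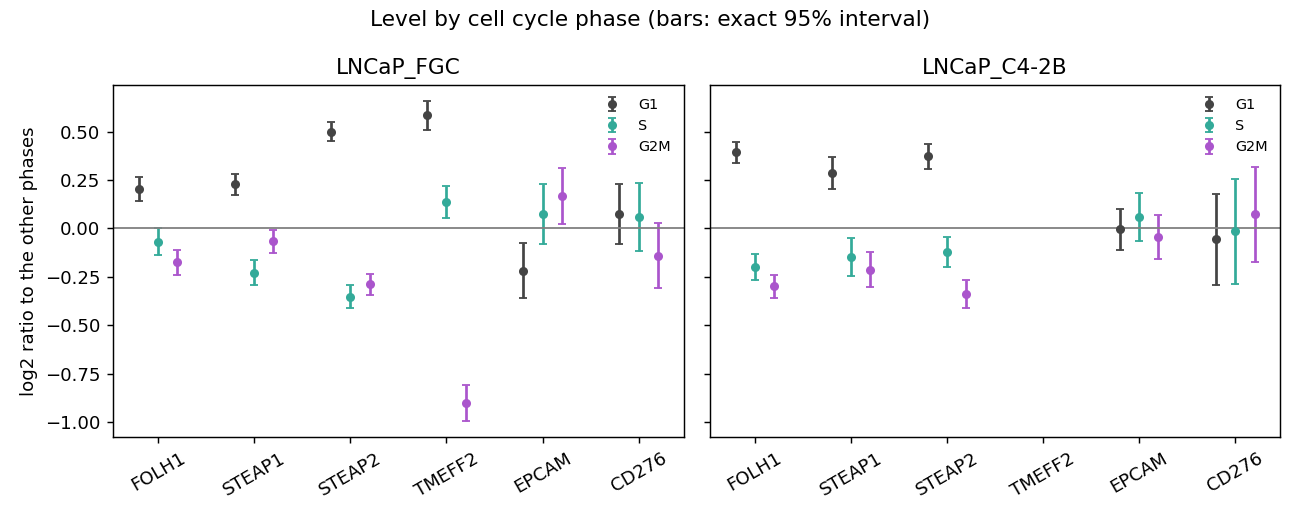
Log2 ratio of the level in G1, S and G2M cells to that in the other phases pooled (vertical axis), for 6 surface target genes in each library, with exact 95% intervals; TMEFF2 is not drawn for LNCaP_C4-2B, where it has 1 UMI. FOLH1, STEAP1 and STEAP2 lie above 0 in G1 in both libraries, and TMEFF2 in G2M of LNCaP_FGC has the lowest value, a ratio of 0.54.

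Clusters were made in each library without the 9 genes, after removal of the cell cycle scores, which gave 7 in LNCaP_FGC (numbered 0 to 6, 54 to 442 cells) and 4 in LNCaP_C4-2B (0 to 3, 214 to 618 cells). They are numbered and not named. TMEFF2 stood at 481 CPM in the 280 cells of LNCaP_FGC cluster 3 (462 to 501), where 97.9% of cells were positive, and at 67.3 CPM in the 257 cells of cluster 4, where 37.7% were positive. In the other 5 clusters it stood between 95.8 and 159 CPM. Cluster 3 held 2318 of the 5747 TMEFF2 UMIs of the library, so most lay in other clusters, and 73.1% of cluster 2 cells and 61.8% of cluster 5 cells were positive. With 4 coarser clusters (resolution 0.3) the range was 103 to 241 CPM.

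Cluster 3 was also the cluster with the least KLK3, 36.5 CPM, and held 83.7 CPM of ETV1. Cluster 0, the largest, was low in KLK3 as well (97.9 CPM) and lowest in ETV1 (17.8 CPM), yet TMEFF2 stood there at 95.8 CPM. Clusters 1, 4 and 5 held 1747, 1370 and 1294 CPM of KLK3 and 129, 67.3 and 159 CPM of TMEFF2. Clusters 0 and 3, both low in KLK3, thus differed in TMEFF2.

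FOLH1 ranged from 158 CPM in cluster 6 and 164 CPM in cluster 2 to 319 CPM in cluster 3 of LNCaP_FGC, a 2.02-fold range. Cluster 2 had the highest median depth, 22905 UMIs per cell, and cluster 6 the highest mitochondrial share, 8.27%, and their part in the FOLH1 levels was not tested. In the 54 cells of cluster 6, FOLH1 was detected in 87.0% and STEAP1 in 88.9%, the lowest shares of the line, EPCAM was lowest (26.1 CPM), and STEAP2 (533 CPM) and CD276 (63.8 CPM) were highest. STEAP1 ranged from 245 CPM (cluster 2) to 364 CPM (cluster 0), where EPCAM was highest (68.4 CPM).

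In LNCaP_C4-2B, the highest cluster exceeded the lowest by 1.26-fold for FOLH1 (275 to 347 CPM), 1.29-fold for STEAP1 (128 to 166 CPM), 1.25-fold for STEAP2 (193 to 242 CPM), 1.46-fold for EPCAM (65.8 to 95.7 CPM) and 1.22-fold for CD276. The libraries were divided into 7 and 4 clusters, so these ranges are not set against those above, and with 4 LNCaP_FGC clusters (resolution 0.3) STEAP2 had a 1.27-fold and STEAP1 a 1.43-fold range. STEAP1 and STEAP2 were lower in every LNCaP_C4-2B cluster than in any LNCaP_FGC cluster, and CD276 likewise, so these differences between the libraries were present in every cluster. FOLH1 and EPCAM levels overlapped between clusters of the lines.

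**Figure D5:**
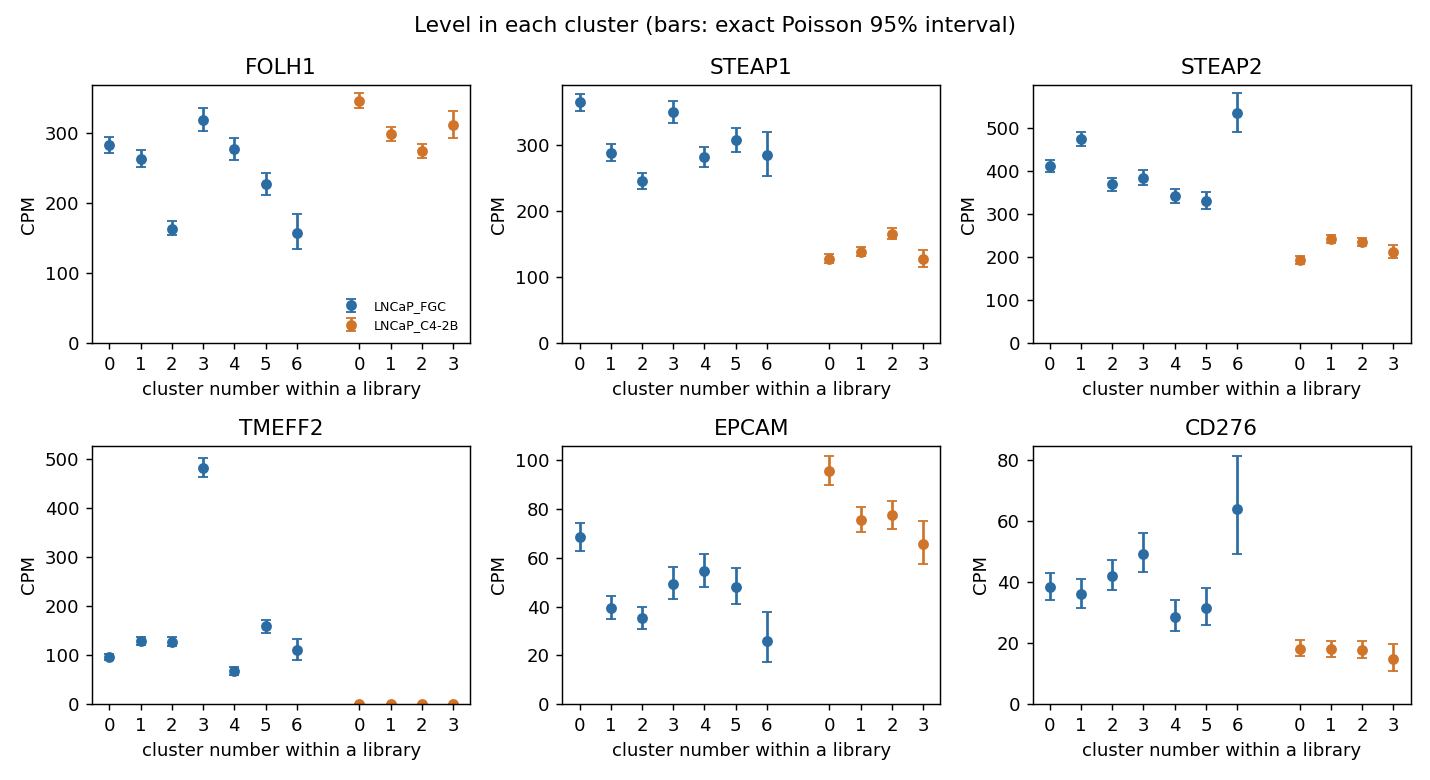
Level (vertical axis, CPM) of 6 surface target genes in each cluster of LNCaP_FGC (0 to 6) and of LNCaP_C4-2B (0 to 3), with exact Poisson 95% intervals; cluster numbers of the libraries are unrelated. TMEFF2 peaks in LNCaP_FGC cluster 3 at 481 CPM, and the STEAP1, STEAP2 and CD276 points of LNCaP_C4-2B all lie below those of LNCaP_FGC.

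The genes most like each target over the thinned cells were named by Pearson's r of log counts, given as a description over cells of 1 library that share depth and batch. For TMEFF2 in LNCaP_FGC they were ANKRD29 (0.41), RALYL (0.39) and MAF (0.35), the last a basic leucine zipper transcription factor gene, among 6447 genes compared. KLK3 came at rank 6445 for TMEFF2, with r of -0.24. For the other targets no r exceeded 0.26. The leading genes in LNCaP_FGC were MIR99AHG, DDX5 and HSP90B1 for FOLH1, NEDD4L, GOLGB1 and NCOR1 for STEAP1, and MALAT1, ENDOD1 and RDH11 for STEAP2. Those in LNCaP_C4-2B were NACA, NPM1 and PPIB, then PMEPA1, SPON2 and TM7SF2, then MALAT1, EEF2 and TMPRSS2. In sparse counts values this low carry little information. STEAP1 and STEAP2 were at 0.15 in LNCaP_FGC and 0.13 in LNCaP_C4-2B.

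Among genes that start within 500 kb of STEAP1, 7 had at least 10 UMIs. By CPM, 6 of them were lower in LNCaP_C4-2B, as were 70.1% of all genes tested, so that count is not a result about the region. CFAP69, a cilium gene, had 22.4 CPM in LNCaP_FGC and 6.88 CPM in LNCaP_C4-2B (3.26-fold lower, 2.82 to 3.78). CLDN12, a claudin gene, had 66.0 CPM and 21.9 CPM (3.01-fold lower, 2.77 to 3.27), and CDK14, a cyclin-dependent kinase gene, 25.9 and 12.5 CPM (2.08-fold lower). GTPBP10 was 1.57-fold lower, STEAP2 is given above, FAM237B had 20 UMIs and 0, and STEAP2-AS1 had 45 UMIs in each library. Against the median gene, CFAP69, CLDN12 and FAM237B were lower and the other 4 were within the limits.

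Near EPCAM, MCFD2, which encodes a cargo receptor subunit, was also higher in LNCaP_C4-2B, 89.6 CPM against 49.4 (1.81-fold, 1.71 to 1.92), while CALM2, a calmodulin gene, had 381 and 422 CPM. The genes around CD276 had 11.4 CPM or less, and NPTN, a synaptic adhesion gene and the nearest by its start, had 11.4 CPM in LNCaP_FGC and 9.90 CPM in LNCaP_C4-2B. No gene with 10 UMIs started within 500 kb of FOLH1 or TMEFF2.

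Relatives of the targets were mostly low. Of 31 listed, 12 had at least 10 UMIs, of which 6 were higher, 5 lower and 1 within the limits, and their median log2 ratio was -0.25 against -0.49 for all genes. LY6E, of the family of PSCA, stood at 51.7 CPM in LNCaP_FGC and 101 CPM in LNCaP_C4-2B (1.96-fold higher), and NAALADL2, a relative of FOLH1, at 60.6 and 39.7 CPM. The 5 lower relatives, named after their values were seen, were STEAP4, NAALAD2, CEACAM1, CD274 and ICOSLG, none of them above 4.95 CPM.

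Of 45 other genes whose proteins have been used or proposed as surface targets, 33 had at least 10 UMIs, with 11 higher, 10 lower and 12 within the limits and a median log2 ratio of -0.60. EGFR, a growth factor receptor gene, was 3.10-fold higher in LNCaP_C4-2B (28.0 to 86.7 CPM), and SLC44A4, a choline transporter gene, 2.14-fold higher (22.6 to 48.2 CPM). TFRC, the transferrin receptor gene, was 4.06-fold lower (232 to 57.2 CPM) and SLC45A3, the gene of prostein, was also lower (71.7 to 18.9 CPM). ICAM1, an adhesion gene named here after its values were seen, had 0 UMIs in LNCaP_FGC against 100 for LNCaP_C4-2B.

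FOLH1 acts on folates, and 16 of 17 folate genes were measured, 5 higher, 5 lower and 6 within the limits, with a median log2 ratio of -0.48. MTHFD1L, a mitochondrial folate enzyme gene, was 1.62-fold higher in LNCaP_C4-2B and SHMT2, the gene of mitochondrial serine hydroxymethyltransferase, 1.31-fold higher. The STEAP family reduces iron, and 16 of 17 iron genes were measured, 5 higher, 2 lower (TFRC and STEAP4) and 9 within the limits, with a median of -0.40. SLC39A8, a metal transporter gene, was 2.17-fold higher and FTH1, ferritin heavy chain, 1.75-fold higher, and SLC11A2, an iron importer gene, had 46.2 and 23.0 CPM.

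All 9 markers of prostate luminal epithelium were present in both libraries. Markers of other cell types were low, with sums of at most 5.06 CPM for any list in either library, and KRT5, TP63, INSM1, COL1A2, DCN, PTPRC, CD3E and CDH5 were at 0 in both. Of 3700 cell barcodes, 0 were shared by the libraries.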

How the data were processed

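Cells of LNCaP_FGC and LNCaP_C4-2B were captured with the 10x Genomics 3′ v3.1 chemistry. The submitters' processing notes name Cell Ranger 6.0, Seurat 5.011 and GRCh38. What the authors deposited are whole UMI counts for each gene in each cell. Before deposit the authors filtered cells on genes, reads, hemoglobin, ribosomal and mitochondrial shares and doublet score, and thinned the counts to a common mean. No doublet caller was run again, and cells with most UMIs were left out as an alternative.

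UMIs were summed per library (35150013 and 35149989 in all) or cell group and scaled to CPM, with exact Poisson intervals. Ratios have exact conditional intervals and shares Clopper-Pearson intervals, all at 95%. A count of 0 was read as a limit of 3. Positions are from GENCODE on GRCh38. Thinning used the percentile 10 of UMIs per cell in the library with the lower median. Phases and clusters were made in Seurat 5.3.0 (R 4.3.3) from 3000 variable genes and 10 principal components at resolution 0.5, and the other steps in Python 3.11.15 with scipy 1.17.1. The ratio step was tested on simulated data, and the thinning step on a part of the deposited LNCaP_FGC cells.

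Genes named beside the 9 targets were the 3 most like each target above 100 CPM in a library, neighbours within 500 kb of targets above 20 CPM, up to 2 genes at each end of each list with at least 20 CPM, near copies, and reference genes, of which KLK3 and ETV1 are given. Some genes that this rule names are not reported here. The targets and lists were chosen with earlier results of these data known. A second draw of the thinning was added for shares of cells after seeing the data. Reads of the antisense gene STEAP2-AS1 may fall to STEAP2, as no source used here states how strand was treated in counting.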

Additional observations from a re-analysis of the deposited data

How the results depend on the processing

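With 1 library per line, no replicate could be left out. No paired analysis was possible because each group has 1 sample. No log2 ratio changed sign. The counts of targets higher (2) and lower (3) were the same with at least 100 UMIs. Beside the library totals, the scalings were totals without ribosomal protein and mitochondrial genes, median-of-ratios size factors and TMM factors (edgeR 4.0.16). A change of scaling shifts every gene and the median gene alike. It therefore cannot alter these counts, which are read against the median gene, and is no test of them. The log2 ratio of the median gene was -0.49, -0.33, -0.02 and -0.03 under the 4 scalings. With no filter beyond 1 UMI 1 target was lower, and at 2-fold 1 was higher and 1 lower.

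The share of cells lacking FOLH1 and STEAP1 (0.270% in LNCaP_FGC, 0.162% in LNCaP_C4-2B) was 2% and 2.81% when at least 2 UMIs were required, 0.678% and 0.781% at 11901 UMIs per cell, 0.0556% and 0.196% without cells over 10% mitochondrial, and 0.431% and 1.38% in a second draw of the thinning, chosen after seeing the data. The order of the libraries was thus the other way under these 4 settings. For FOLH1, STEAP1 and STEAP2 together it was 0% in LNCaP_FGC without cells over 10% mitochondrial, and in LNCaP_C4-2B 0.703% with at least 2 UMIs (0.162% in LNCaP_FGC) and 0.360% in the second draw (0.123%), above LNCaP_FGC. Without the 5% of cells with most UMIs these shares stayed within their intervals. At resolution 0.3 the highest LNCaP_FGC cluster exceeded the lowest by 2.33-fold for TMEFF2, against 7.16-fold at 0.5, and by 1.45-fold for CD276, against 2.22-fold. Shares of positive cells follow depth and level, and at this depth a negative cell does not show absence of a gene.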
